A study of Mus musculus and Macaca mulatta with 39 samples.

Results

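Broad H3K27ac domains of the embryonic mouse cortex are long stretches of the genome in which acetylation of histone H3 at lysine 27 was called at every stage and in every area profiled. To find them, the called regions of 8 mouse H3K27ac lists were merged wherever they overlapped or touched, on the autosomes. Members were the merged loci that held a region of all 8 lists and were at least 20000 bp long. This left 473 domains out of 133378 H3K27ac loci, and out of 22833 loci called in all 8 lists. A further 26 loci reached the length but lacked a region in at least 1 list. The missing list was E11.5 replicate 1 at 17 of them and E11.5 replicate 2 at 20.

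The series profiled H3K27ac and H3K4me2 by chromatin immunoprecipitation sequencing (ChIP-seq) in the developing cortex of mouse and rhesus, and only mouse data were used here. The mice were of the strain C57BL6J, and their embryonic cortex was taken from timed pregnancies and crosslinked: whole cortex at E11.5 and E14.5 (E is the embryonic day), and its frontal and its occipital part at E17.5. Each of these 4 tissues had 2 biological replicates per the design text, giving 2 lists of each mark. No group carried a treatment or an engineered allele. The sources used here do not say how many embryos went into a sample. Each sample is a list of called regions with no counts, so the depth behind a region is unknown and the measure throughout is covered length. The samples were pieces of tissue, in which fewer cells carrying a mark and less of the mark in each cell cannot be told apart. Positions are mm9 coordinates counted from 1. No mm9 gene annotation was used here, so domains are named by position and the labelled tissue was not checked against marker genes.

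H3K27ac is placed at active promoters and enhancers by the acetyltransferases CBP and p300. Where many active enhancers lie close together the mark can run for many kilobases, and such stretches, often called super-enhancers or stretch enhancers, are known for lying near genes that set the identity of a cell. H3K4me2 marks promoters and enhancers as well, including enhancers that are accessible but not acetylated. In the mouse cortex, E11.5 tissue is mostly dividing progenitors, E14.5 falls in the middle of neuron production, and by E17.5 many neurons have settled in their layers.

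The lists differed in total length, within tissues as well as between them. On the autosomes the 2 E11.5 H3K27ac lists covered 82.4 and 61.1 Mb, the E14.5 lists 140 and 104 Mb, the frontal lists 168 and 156 Mb and the occipital lists 157 and 126 Mb. For H3K4me2 the totals were 67.0 and 108 Mb at E11.5, 63.5 and 92.2 Mb at E14.5, 102 and 87.2 Mb in frontal cortex and 109 and 158 Mb in occipital cortex. The E11.5 lists were thus the shortest for H3K27ac, and occipital replicate 2 was the longest for H3K4me2. List length moves with the stage, and its part in the results below was not tested.

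The domains measured 20000 to 192750 bp, with a median of 26925 bp and an interquartile range of 23049 to 35201 bp. Most were close to the lower limit: 306 of the 473 were under 30 kb, 39 were 50 kb or more and 2 exceeded 100 kb. They made up 2.07% of the loci called in all 8 lists and 13.2% of the length of those loci, 15.0 Mb in all. Just inside the limit lay domains on chromosome 5 from 118520901, chromosome 1 from 195397776 and chromosome 2 from 61638701, of 20000, 20000 and 20025 bp. Just outside it lay loci of 19975 bp on chromosome 2 from 30638026, 19975 bp on chromosome 12 from 5243301 and 19950 bp on chromosome 6 from 118782976. The loci on both sides of the limit looked alike in how much of them was acetylated, with 43.9% to 100.0% covered in the E14.5 and E17.5 lists inside it and 37.0% to 100.0% outside.

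Domains were spread unevenly over the autosomes. Chromosomes 12 and 14 carried 40 and 33, or 3.92 and 3.71 for every 100 loci called in all 8 lists, whereas chromosome 10 carried 8, or 0.714 per 100. Some sat side by side: of 454 pairs of neighbours on a chromosome, 100 were within 50 kb of each other and 47 within 10 kb, against a median spacing of 658 kb. The largest cluster held 11 domains on chromosome 5 between 111932876 and 112601326. The mean H3K27ac cover of its domains was 28.3% at E11.5, 79.5% at E14.5 and 82.3% at E17.5. A second cluster of 6 domains, on chromosome 14 between 64763351 and 65081675, went from 12.8% to 60.0% and 87.2%. Both clusters were sparsely acetylated at E11.5 and largely covered later, and the chromosome 14 cluster started lower.

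H3K27ac covered a minor part of the domains at E11.5 and most of them from E14.5 on. The median share of a domain covered was 35.7% and 21.3% in the 2 E11.5 lists, 82.7% and 69.3% in the E14.5 lists, 89.9% and 80.5% in frontal cortex and 85.0% and 66.8% in occipital cortex. As tissue means this was 28.5% ± 10.2 (SD, n = 2 lists) at E11.5, 76.0% ± 9.5 at E14.5, 85.2% ± 6.64 in frontal and 75.9% ± 12.9 in occipital cortex. The E11.5 lists lay below the other 6, while the E14.5 and E17.5 lists overlapped. The rule chose the domains on the length of the merged H3K27ac regions, so these values are a description and carry no test. The 22360 other loci called in all 8 lists were already largely covered at E11.5, with medians of 69.0% and 54.7%, and stood at 71.7% to 88.4% in the later lists.

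**Figure D1:**
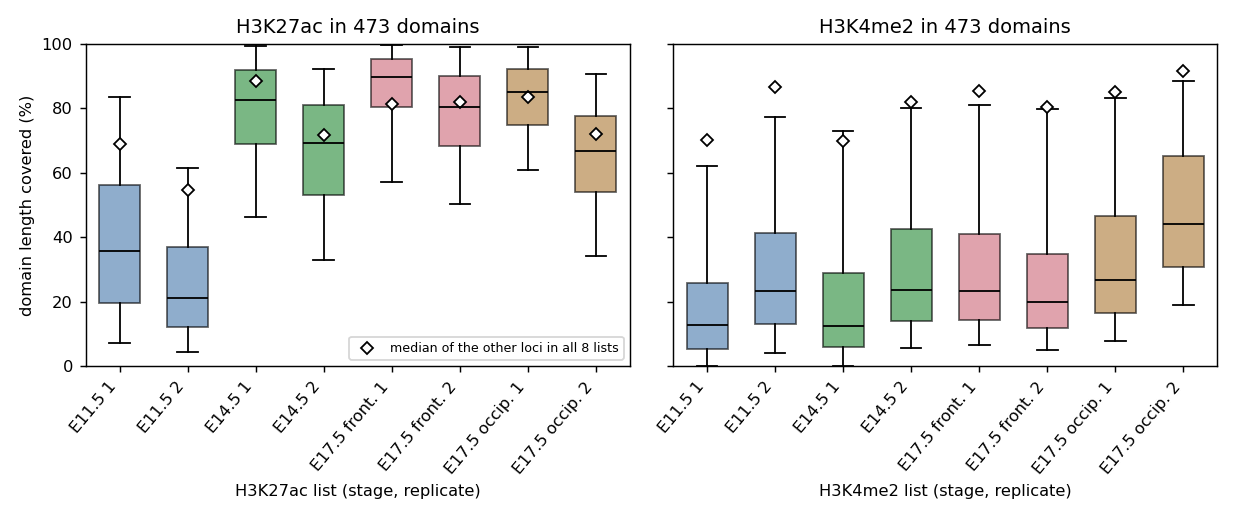
Share of each of the 473 domains covered by H3K27ac (left) and H3K4me2 (right), in percent of domain length, for each of the 8 lists of a mark. Boxes span the interquartile range with the median as a line, whiskers the 5th to 95th percentile, and diamonds give the median of the other loci called in all 8 lists. Medians for H3K27ac were 35.7% and 21.3% at E11.5 and at least 66.8% in the 6 later lists, whereas the H3K4me2 medians stayed between 12.5% and 44.1%.

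The domains took up a similar share of every H3K27ac list. They held 6.01 and 3.94 Mb of the E11.5 lists, or 7.30% and 6.45% of those lists, and 11.9 and 10.1 Mb of the E14.5 lists, or 8.49% and 9.71%. At E17.5 they held 9.93 to 13 Mb, or 7.62% to 7.97% of each list. The share was highest in both E14.5 lists and lowest in both E11.5 lists. With each list cut to its 45953 widest regions, the number in the shortest list, the tissue means of covered length were 28.5% at E11.5, 75.4% at E14.5, 84.8% in frontal and 74.6% in occipital cortex. The cut takes out only the narrowest regions and none of the shortest list, so nothing about the part of list length is read from it.

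At E11.5 the domains were sets of separate regions, and later lists held wider and, in frontal cortex, fewer ones. A domain held on average 3.84 and 4.00 regions in the E11.5 lists, 2.99 and 3.96 in the E14.5 lists, 2.49 and 3.06 in frontal cortex and 2.74 and 4.20 in occipital cortex. The tissue means were 3.92 ± 0.111, 3.47 ± 0.689, 2.77 ± 0.407 and 3.47 ± 1.03 (SD, n = 2). Frontal cortex lay below E11.5 in both lists, but occipital replicate 2 was the most fragmented list of all. The number of regions thus overlapped between E11.5 and occipital cortex. The gaps between regions narrowed, from medians of 2600 and 3225 bp in the E11.5 lists to 1500 to 1962.5 bp in the later 6.

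The width of the regions separated the stages more clearly than their number. The widest region of a domain spanned a median of 16.7% and 10.1% of its length in the E11.5 lists. This rose to 54.8% and 35.0% at E14.5, 64.6% and 48.9% in frontal cortex and 58.1% and 33.5% in occipital cortex. A region of 20 kb or more was present in 29 and 6 domains in the E11.5 lists, 165 and 86 at E14.5, 215 and 146 in frontal and 182 and 59 in occipital cortex. Few domains were broad in this sense at E11.5. Within each tissue, replicate 1 held the wider regions.

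**Figure D2:**
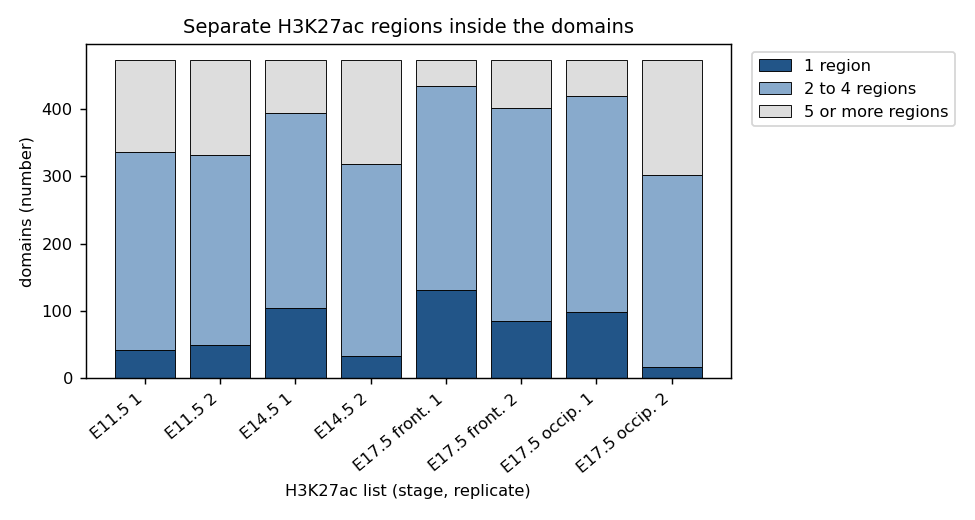
Number of domains (of 473) that held 1, 2 to 4, or 5 or more separate H3K27ac regions in each of the 8 lists. Domains seen as 1 region numbered 43 and 49 at E11.5, 104 and 33 at E14.5, 131 and 86 in frontal cortex and 99 and 17 in occipital cortex, so the replicates of a tissue differed widely.

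The E11.5 regions, taken over both lists, spanned most of the length of a domain. The rule required E11.5 regions in each domain and used them in setting its ends, so the span is a description. From the first to the last region of either E11.5 list, a median of 84.3% of the domain's length was spanned, with an interquartile range of 70.4% to 92.3%. The span exceeded 90% of the length in 151 domains and fell short of 50% in 49. Of all domain bp, 22.7% lay in both E11.5 lists and 43.9% in at least 1 of them, against 63.4% in both E14.5 lists and 56.9% in all 4 E17.5 lists. The early acetylated bp were largely retained, since 88.3% of the bp in both E11.5 lists were also in all E17.5 lists. A core present in all 8 lists made up 19.8% of domain bp, with a median of 4200 bp per domain. In 18 domains no bp was shared by all 8 lists, although each list had a region somewhere in the domain.

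Filling took place both between the E11.5 regions and beyond them. Of domain bp that were in neither E11.5 list, 64.9% lay between E11.5 regions and the rest towards the ends. Among bp gained in an E17.5 list, 68.3% ± 0.966 (SD, n = 4 lists) lay between. In both E14.5 lists that share was higher, at 72.4% ± 1.01 (n = 2). Expressed as how full each part became, the space between was covered to 73.8% and 55.7% in the E14.5 lists and the space outside to 53.8% and 37.8%. At E17.5 the space between was covered to 56.4% to 85.3% over the 4 lists and the space outside to 45.3% to 75.5%. The inner space was the fuller in each of the 6 later lists, but the ends of a domain are set by whichever list reaches furthest, which by itself lowers the cover near the ends in any 1 list. For the same reason no gradient is read from the ends. The outermost twentieth of a domain's length at each end had the lowest cover in every H3K27ac list, for example 19.4% and 11.1% in the E11.5 lists against 43.1% and 29.2% at the middle.

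Most of the gain had happened by E14.5. Of domain bp, 24.2% were in both E14.5 lists and neither E11.5 list. The bp in all E17.5 lists and neither E11.5 list amounted to 23.1%, and 7.17% were of this kind but not in both E14.5 lists. More lists must share a bp at E17.5 than at E14.5, so these shares may understate the late gain. As means over lists, 33.3% of domain bp were covered at E11.5, 73.6% at E14.5 and 79.1% at E17.5. In the other loci called in all 8 lists 39% of bp were in both E11.5 lists and 9.45% were gained by all E17.5 lists. The rule used these lists, so the 2 sets are given side by side only.

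Counted by domain, 451 had a higher mean H3K27ac cover at E17.5 than at E11.5 and 22 a lower one, with a median difference of 49.0 percentage points. All 4 E17.5 lists lay above both E11.5 lists in 391 domains (82.7%) and below them in 3. Over the 83000 loci called in at least 2 lists these shares were 29.5% above and 3.93% below. At E14.5 both lists lay above both E11.5 lists in 438 domains (92.6%) and below in 0, against 29.3% and 3.73% of all such loci. Since the rule used these lists, nothing is read from the contrast between the shares. Between E14.5 and E17.5 the change was small: all E17.5 lists lay above in 92 domains and below in 40 (all loci 11.3% and 6.13%), with a median difference of 4.9 points. Mean cover was highest at E17.5 in 288 domains, at E14.5 in 181 and at E11.5 in 4, and in 37 domains both E14.5 lists lay above all other lists.

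Domains were also chosen in the lists of 1 replicate number and measured in the other. Of these, 407 of 412 and 241 of 241 overlapped a domain of the main set. With domains chosen from the 4 replicate 1 lists, 412 were found, and in the replicate 2 lists their median cover was 22.0% at E11.5, 71.9% at E14.5, 82.6% in frontal and 69.3% in occipital cortex. Both E17.5 lists of replicate 2 lay above its E11.5 list in 390 of the 412 and below it in 7. With the 241 domains chosen from the replicate 2 lists, the replicate 1 medians were 47.2%, 90.3%, 93.6% and 94.0%. Here both E17.5 lists lay above in 223 and below in 12. No share over all loci stands beside these counts, and the E11.5 list was the shortest of each replicate. Nothing particular to the domains is therefore read from them. With 1 list per tissue left, no test could be made.

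Length and cover come from the same merged lists, so the following values by length are a description. Among loci called in all 8 lists the median rise from E11.5 to E17.5 was 7.88 points below 2 kb, 11.1 at 2 to 5 kb, 29.3 at 5 to 10 kb and 39.8 at 10 to 20 kb. Inside the domains it was 48.8 points for 306 domains of 20 to 30 kb, 50.1 for 128 of 30 to 50 kb and 52.6 for 39 longer ones. Over the 473 domains, length and rise had a Spearman rho of 0.0292 (a description, over domains measured in the same lists). E17.5 cover varied little with E11.5 cover. When the domains were divided by E11.5 cover into 4 groups of 118 or 119, the medians at E11.5, which defined the groups, were 11.4%, 22.3%, 37.3% and 58.5%. At E14.5 these groups reached 59.4%, 71.9%, 79.7% and 87.6%, and at E17.5 they stood at 78.2%, 77.6%, 81.4% and 81.1%. The spread between the groups was smaller at each later stage. Cutting the groups on E11.5 cover by itself makes the spread widest at E11.5, and the rule used these lists. No convergence of the domains is therefore read from it.

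The longest domain lay on chromosome 8 from 122875276 to 123068025 and measured 192750 bp. H3K27ac covered 63.6% and 41.7% of it in the E11.5 lists, 97.3% and 91.8% at E14.5, 96.7% and 85.8% in frontal cortex and 93.2% and 70.5% in occipital cortex. At E11.5 the mark was broken into 29 and 31 regions, the most of any named domain, and at E14.5 into 3 and 10. The E11.5 lists lay below the other 6, and the E14.5 and E17.5 lists overlapped. The E17.5 lists held 6 and 13 regions in frontal and 8 and 25 in occipital cortex, which overlapped the E14.5 counts. The second longest, 113926 bp on chromosome 5 from 112487401 to 112601326, ended the cluster of 11. It was covered to 22.2% and 10.7% at E11.5, 71.4% and 63.3% at E14.5, 98.0% and 74.0% in frontal cortex and 84.3% and 40.6% in occipital cortex. It was joined into 2 regions in frontal replicate 1 but held 22 in occipital replicate 2.

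The domain on chromosome 14 from 64986776 to 65081675, of 94900 bp, showed the plainest fill among the longest. Its cover was 11.6% and 9.04% in the E11.5 lists, 73.2% and 53.0% at E14.5, 92.4% and 97.5% in frontal cortex and 99.5% and 77.6% in occipital cortex. The 7 and 8 short E11.5 regions became 13 and 14 at E14.5, and by occipital replicate 1 there was 1 region. The mean rose 8.87-fold from 10.3% to 91.7%, and the 3 stages did not overlap. The chromosome 12 domain from 107291076 to 107384651 followed a like course, from 11.9% and 11.3% at E11.5 through 70.7% and 57.8% to between 60.4% and 95.6% at E17.5. The remaining 4 of the 8 longest, of 78400 to 87275 bp on chromosomes 2, 9 and 11, rose by 41.8 to 68.7 points.

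**Figure D3:**
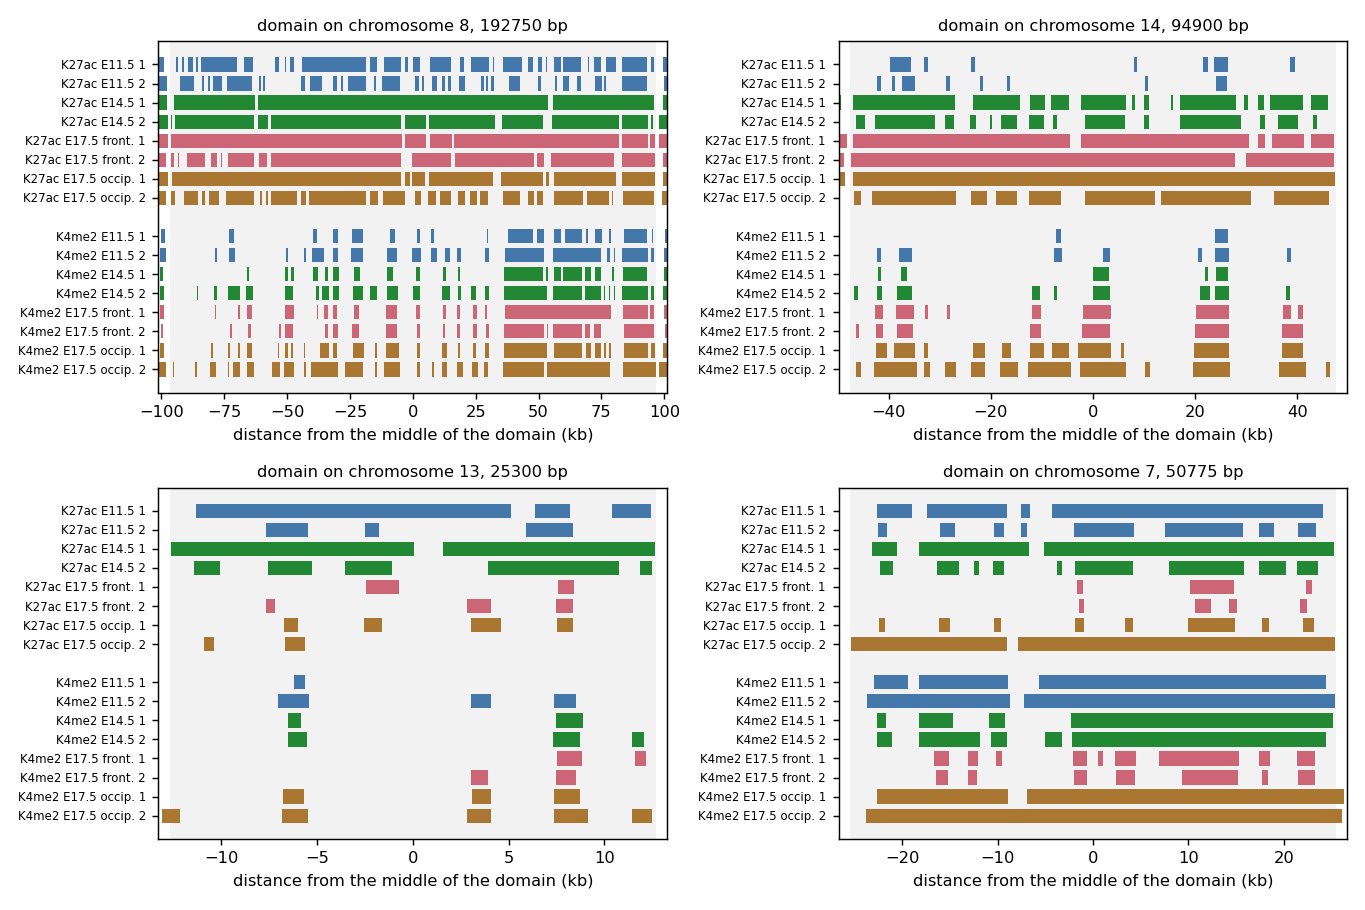
Called regions of the 8 H3K27ac and 8 H3K4me2 lists in 4 domains, placed by distance in kb from the middle of the domain, with the domain shaded and each bar 1 region. The chromosome 8 and chromosome 14 domains (top) fill with H3K27ac from E11.5 to E14.5 or E17.5. The chromosome 13 domain (bottom left) is mostly covered in the E14.5 lists and carries 6.23% to 16.1% at E17.5, and the chromosome 7 domain (bottom right) is covered to 97.6% in 1 occipital list and to 7.78% and 11.8% in the frontal lists.

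The domains with the largest rise were nearly bare at E11.5. On chromosome 9 from 113411951 to 113435626, cover was 10.6% and 2.11% at E11.5, 69.0% and 62.6% at E14.5, 99.4% and 92.9% in frontal and 91.5% and 85.2% in occipital cortex. Each E11.5 list had 1 short region in this domain of 23676 bp, and mean cover rose by 85.9 points. A pair of domains on chromosome 15, from 83692927 to 83741376 and from 83783327 to 83846500, each rose by 83.9 points. The first was covered to 4.54% and 6.76% at E11.5 and to 84.6% to 94.8% at E17.5, with no bp common to all 8 lists. In these 3 domains all E17.5 lists but 1 exceeded every E14.5 list; the exception was occipital replicate 2 of the last domain, at 83.3% against 86.1% in E14.5 replicate 1. The next domains by rise, on chromosome 9 from 103435102 and on chromosome 11 from 25751651, rose by 83.6 and 83.2 points.

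A few domains went the other way. The largest fall was on chromosome 13 from 48102551 to 48127850. Cover there was 80.2% and 21.3% at E11.5, 94.2% and 53.4% at E14.5, 9.98% and 10.6% in frontal and 16.1% and 6.23% in occipital cortex. All 4 E17.5 lists lay below the 4 earlier ones, and the mean went from 73.8% at E14.5 to 10.7% at E17.5. On chromosome 19 from 59523101 to 59547325 the cover was 91.6% and 78.9% at E11.5, 100.0% and 92.5% at E14.5, and 59.2% to 63.0% in the 4 E17.5 lists. Here too the 4 E17.5 lists lay below the 4 earlier ones. Falls on chromosome 7 from 151804826 (30.1 points) and chromosome 13 from 23825926 (25.1 points) rested on an E11.5 replicate 1 list at 100.0%, and E17.5 values there overlapped those of E11.5 replicate 2.

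Every domain held a region in both areas by the rule, so only the cover could differ. Frontal cover had the higher mean in 388 domains, with a median difference of 7.81 points. Both frontal lists lay above both occipital lists in 77 domains and below them in 10, against 13.2% and 6.88% of all loci called in at least 2 lists. The frontal lists covered 168 and 156 Mb in all and the occipital lists 157 and 126 Mb, so the frontal lists were longer on average, with overlap. Inside the domains the list pairs that shared most bp, relative to the bp in either list, crossed the areas: frontal replicate 2 with occipital replicate 1 at 0.832 and frontal replicate 1 with occipital replicate 1 at 0.826. The 2 frontal lists shared 0.781 and the 2 occipital lists 0.711. Both of these cross-area pairs were thus more alike than the replicates of either area. Pairs with occipital replicate 2 were the least alike at E17.5, at 0.694 to 0.711.

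H3K4me2 was found in every domain but covered a minor share of the length of most. The median share of a domain covered was 12.8% and 23.5% in the E11.5 lists, 12.5% and 23.6% at E14.5, 23.3% and 19.8% in frontal cortex and 26.9% and 44.1% in occipital cortex. Tissue means were 18.1% ± 7.54, 18% ± 7.81, 21.6% ± 2.5 and 35.5% ± 12.2 (SD, n = 2). The E11.5, E14.5 and frontal lists overlapped, and both occipital lists lay above the rest. In the other loci called in all 8 lists H3K4me2 covered a far larger share, with medians of 70.0% to 91.5%. In bp the order was the reverse. Median H3K4me2 per locus at E11.5 was 2225 bp at 2 to 5 kb, 4206.2 bp at 20 to 30 kb and 12112.5 bp at 50 kb or more. The share is taken of the merged H3K27ac length, which is long in the domains by the rule. H3K4me2 was present in all 8 lists in 412 domains and in at least 2 lists in all 473. With each list cut to its 31577 widest regions the tissue means were 16.7%, 17.2%, 19.4% and 30.7%. This cut too takes out only the narrowest regions, so nothing about list length is read from it.

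Stage differences in H3K4me2 were smaller than in H3K27ac and overlapped in most domains. All E17.5 lists lay above both E11.5 lists in 172 domains and below them in 16, against 19.8% and 5.7% of the 54677 loci with H3K4me2 in at least 2 lists. Between E11.5 and E14.5 the lists separated upward in 61 domains and downward in 33 (all loci 6.57% and 9.69%), with a median difference of 0.0 points. Between E14.5 and E17.5 they separated upward in 134 and downward in 4 (all loci 18.2% and 0.554%), with a median of 8.97 points. The order of these medians depended on the scaling and on 1 list. On the log2 scale of the test described further on, the median over the domains was 0.00 before E14.5 and 0.55 after it, but 0.14 and 0.04 with covered bp scaled to the list total, and 0.38 and 0.16 without E14.5 replicate 1.

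The gap between the marks opened with the length of the locus. At E11.5 the median H3K4me2 cover was 97.8% in loci under 2 kb, 33.8% at 5 to 10 kb and 20.9% at 30 to 50 kb, and in the same classes H3K27ac cover was 74.7%, 37.5% and 33.6%. At E11.5 either mark thus covered a minor share of the length of the domains. In frontal cortex the H3K27ac values for these classes were 83.9%, 73.8% and 86.1%, against 100.0%, 33.3% and 22.3% for H3K4me2. Mean H3K4me2 cover exceeded mean H3K27ac cover in 136 domains at E11.5, 15 at E14.5 and 24 at E17.5. Domains with more H3K4me2 than H3K27ac were thus a minority at each stage, and the smallest one at E14.5.

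**Figure D4:**
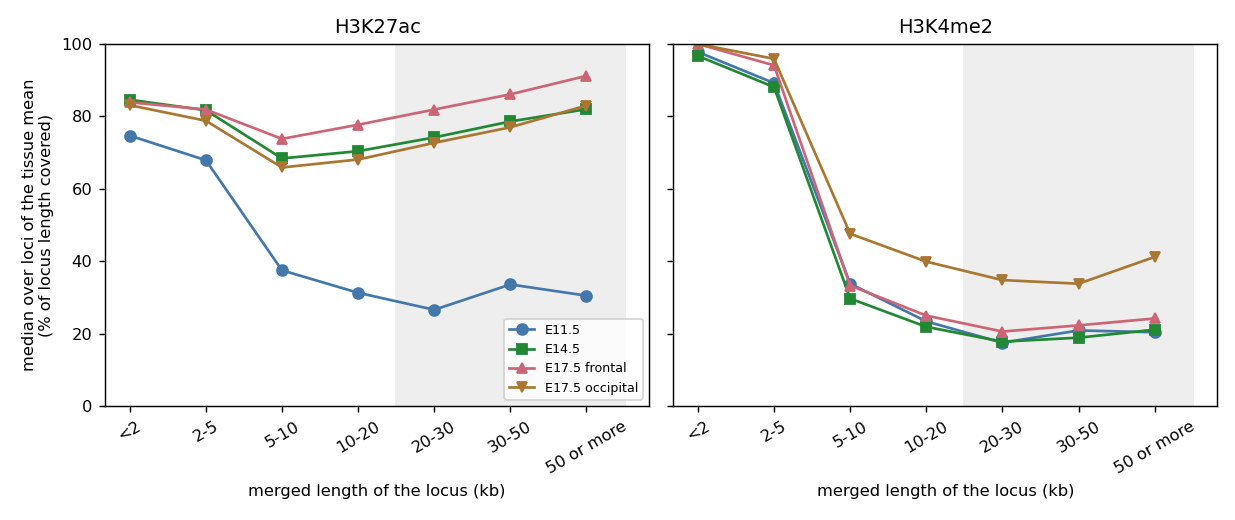
Median share of a locus covered by H3K27ac (left) and H3K4me2 (right), in percent, for loci called in all 8 H3K27ac lists grouped by merged length, with the domain classes shaded. Each point is the median over loci of the mean of a tissue's 2 lists. H3K27ac at 30 to 50 kb was 33.6% at E11.5 and 77.0% to 86.1% later, while H3K4me2 in that class was 18.9% to 33.8%.

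H3K4me2 was denser on the early acetylated bp of the domains than on the gained ones. Of bp acetylated in both E11.5 lists, H3K4me2 covered 60.5% and 76.8% at E11.5, 56.9% and 73.6% at E14.5, 68.1% and 62.0% in frontal and 71.0% and 84.2% in occipital cortex. Of bp acetylated in all E17.5 lists and neither E11.5 list, it covered 5.57% to 23.3% in the 4 lists of E11.5 and E14.5, 29.0% and 25.9% in frontal and 34.0% and 56.1% in occipital cortex. On the early bp the stages overlapped, and on the gained bp all E17.5 lists lay above all earlier ones. The early bp nonetheless carried the higher share in each of the 8 lists. They held 68.1% and 57.3% of the H3K4me2 bp of the domains at E11.5, 59.9% and 53.1% at E14.5, 49.0% and 50.3% in frontal and 46.6% and 38.9% in occipital cortex. In 3 of the 4 E17.5 lists most H3K4me2 bp of the domains thus lay outside the early acetylated bp. In the other loci called in all 8 lists both shares were higher, at 78.1% to 91.4% of early and 19.3% to 72.6% of gained bp. Most H3K4me2 bp of the domains lay within H3K27ac of the list with the same tissue and replicate number, 89.6% to 99.0% in all lists but E11.5 replicate 2, where it was 59.2%.

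**Figure D5:**
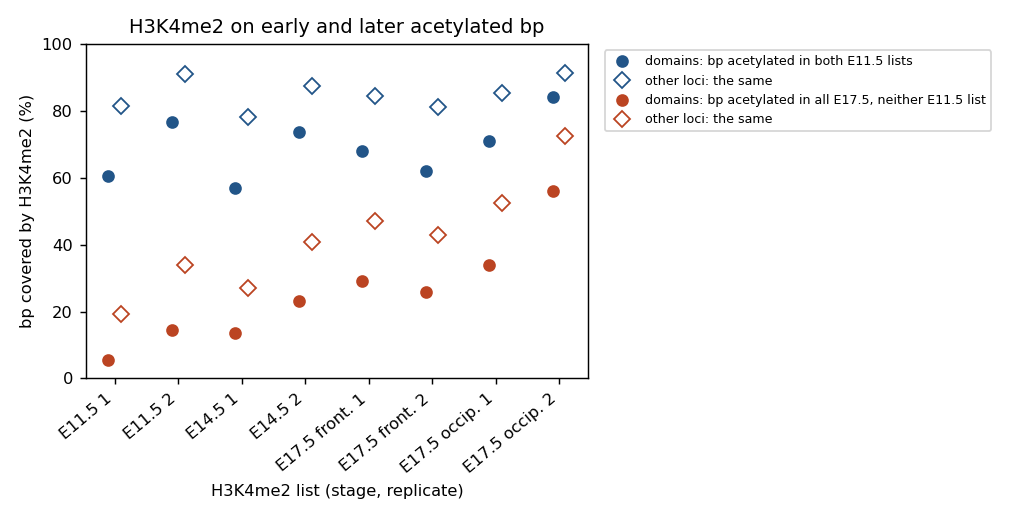
Share of bp covered by H3K4me2 in each of the 8 H3K4me2 lists, in percent, for bp acetylated in both E11.5 lists (blue) and bp acetylated in all E17.5 lists but neither E11.5 list (red), in the domains (filled circles) and in the other loci called in all 8 lists (open diamonds). In the domains the early bp stood at 56.9% to 84.2% and the gained bp went from 5.57% in E11.5 replicate 1 to 56.1% in occipital replicate 2.

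H3K4me2 was not used to choose the domains, and its covered length was tested with limma on log2(bp + 200) over 54677 H3K27ac loci with H3K4me2 in at least 2 lists, which included all 473 domains. From E11.5 to E17.5, 44 domains rose at an adjusted p below 0.05 and 0 fell (9.3%), against 15.1% of all tested loci that rose and 2.16% that fell. The domains' median log2 difference was 0.58, against 0.20 over all loci, and 393 of 473 were positive. That median was 0.21 (290 positive) with covered bp scaled to the list total, 0.16 (290 positive) without E11.5 replicate 1 and 0.95 (434 positive) without E11.5 replicate 2. At an unadjusted p below 0.05 there were 127 domains (26.8%) and 29.6% of all loci. The count over all loci changed with the list left out in every contrast. The count of domains rested on single lists. It was 13 without E11.5 replicate 1 and 71 without E11.5 replicate 2. Without frontal replicate 1 or 2 it was 17 or 20, and without occipital replicate 1 or 2 it was 22 or 18 (17 higher, 1 lower). With covered bp scaled to the list total, 82 domains rose and 16 fell (20.7%), against 18.9% of all loci called (15.0% higher, 3.93% lower), and the median of all loci moved from 0.20 to -0.11. This scaling also moved the median of all loci from 0.31 to -0.06 for E17.5 against E14.5 and from -0.16 to 0.18 for frontal against occipital cortex.

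The fit had a weakness for the domains richest in H3K4me2. The spread that limma expects at a given level was set by a trend over all loci, and 74 domains but only 4 other loci had a mean log2(bp + 200) of 14 or more. There the expected SD reached 36.8, against a largest observed SD of 0.678 among those domains. Of the 74, 8 were called with the trend and 20 without it, 16 higher and 4 lower. Over all domains 51 were called without the trend (47 higher, 4 lower), of which 39 were also called with it, against 16.7% of all loci without the trend.

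With the trend, the gains from E11.5 to E17.5 with the smallest limma adjusted p were in domains with no H3K4me2 at E11.5. Without the trend this order did not hold. Domains on chromosome 1 from 57006601 and chromosome 4 from 97436002, which held H3K4me2 at E11.5, then came first (limma adjusted p = 0.000254 and 0.000513). On chromosome 6 from 88706776 to 88727450, no H3K4me2 was called in either E11.5 list, and the covered length was 1300 and 3025 bp at E14.5, 4450 and 3550 bp in frontal and 3950 and 7475 bp in occipital cortex. The domain on chromosome 4 from 129742351 to 129764701 was likewise at 0 in both E11.5 lists, with 1900 and 3550 bp at E14.5 and 2250 to 8500 bp at E17.5. For both, each later list exceeded both E11.5 lists. The limma test with Benjamini-Hochberg adjustment gave adjusted p values of 0.00184 and 0.00185 for E17.5 against E11.5 and 0.0298 and 0.017 for E14.5 against E11.5. The chromosome 8 domain from 126687102 to 126710800 likewise had none in either E11.5 list, with 900 and 1225 bp at E14.5 and 2025 to 9025 bp at E17.5 (limma adjusted p = 0.00278 for E17.5 against E11.5). Lists at 0 bp all take the value of the added 200 bp. In these domains the E11.5 lists thus show no spread, and the size of the difference depends on the number added.

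Other domains extended H3K4me2 that was already there, and did so by E14.5. On chromosome 11 from 98174076 to 98205950 the covered length was 6450 and 8900 bp at E11.5, 21125 and 24275 bp at E14.5, 22950 and 22650 bp in frontal and 23175 and 25325 bp in occipital cortex. The 6 later lists formed a narrow range above both E11.5 lists. The log2 difference was 1.55 (SE 0.19, limma adjusted p = 0.0209) at E14.5 and 1.61 (SE 0.17, limma adjusted p = 0.00306) at E17.5. H3K27ac of this domain went from a mean of 8.78% at E11.5 to 77.6% or more in all later lists. On chromosome 4 from 97436002 to 97458875, H3K4me2 went from 10875 and 12025 bp at E11.5 to 19575 to 20125 bp in the 6 later lists (log2 difference at E14.5 0.79, SE 0.10, limma adjusted p = 0.0249). The domain on chromosome 11 from 101538301 to 101563276 went from 1750 and 2400 bp to 5150 to 9550 bp (log2 difference at E17.5 1.78, SE 0.19, limma adjusted p = 0.00361). The named domains on chromosomes 4, 6 and 11 were the 5 that rose from E11.5 to E14.5, and 0 fell, against 2.22% of all loci that rose and 1.63% that fell. The count was 0 without either frontal list, 3 without either E14.5 list (2 higher and 1 lower without replicate 2), 2 (1 higher, 1 lower) without E11.5 replicate 1 and 11 without E11.5 replicate 2. With a pseudocount of 1000 bp in place of 200 bp the count was 0.

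Gains between E14.5 and E17.5 were called in 8 domains and losses in 0, against 10.8% and 0.271% of all loci. The count was 0 without E14.5 replicate 1 and 26 without E14.5 replicate 2. It was 3 without either frontal list and 4 (3 higher, 1 lower) without occipital replicate 2. On chromosome 1 from 57006601 to 57041951 H3K4me2 covered 11350 and 12825 bp at E11.5, 15150 and 17025 bp at E14.5, 35351 and 35325 bp in frontal and 31875 and 32200 bp in occipital cortex. The mark thus came to fill the whole domain in frontal replicate 1. The log2 difference from E14.5 to E17.5 was 1.06 (SE 0.17, limma adjusted p = 0.0206). On chromosome 3 from 85455001 to 85477601, H3K4me2 was at 0 in all 4 earlier lists and covered 2525 and 1100 bp in frontal and 2875 and 7525 bp in occipital cortex (limma adjusted p = 0.00869). Here too the lists at 0 bp show no spread, and the difference depends on the 200 bp added. H3K27ac in that domain was 25.9% and 16.6% at E14.5 and 53.2% to 89.9% at E17.5. By the rule H3K27ac also had a region in both E11.5 lists, so only H3K4me2 was first called at E17.5. On chromosome 12 from 107409101 and chromosome 7 from 139344376, H3K4me2 rose by log2 differences of 1.27 (SE 0.22) and 1.83 (SE 0.34), with limma adjusted p of 0.0264 and 0.0372.

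Frontal and occipital cortex differed in H3K4me2 at 1 domain by this fit. It lay on chromosome 2 from 93054527 to 93075050 and had 3050 and 2975 bp in frontal and 3750 and 4250 bp in occipital cortex, a log2 difference of -0.38 (SE 0.07, limma adjusted p = 0.0471). Over all loci 0.582% were higher and 7.24% lower in frontal cortex. The direction of that domain was not stable, since scaling to the list total gave 0.07. It was not called in the fit without the trend. The number of domains called was 2 without either E11.5 list, and 0 without either E14.5 list, either frontal list or occipital replicate 2. Both frontal lists lay below both occipital lists in 294 domains and above in 6, against 34.8% and 4.12% of all loci, and the occipital lists were the longer ones. At an unadjusted p below 0.05, 32 domains (6.77%) and 14.1% of all loci differed. From E11.5 to frontal cortex alone, 15 domains rose and 0 fell, against 6.88% and 1.95% of all loci; leaving out frontal replicate 1 gave 0, frontal replicate 2 gave 2, E11.5 replicate 1 gave 3 (2 higher, 1 lower) and E11.5 replicate 2 gave 31.

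Without the trend 3 domains differed between the areas, against 8.05% of all loci, and those on chromosomes 13 and 9 were chosen after their values were seen. The chromosome 7 domain from 77467101 to 77517875 had H3K4me2 on 84.6% and 93.5% of its length at E11.5, 66.3% and 75.1% at E14.5, 37.3% and 27.3% in frontal and 90.8% and 96.8% in occipital cortex. Both frontal lists lay far below all others. The log2 difference between areas was -1.54, with SE 0.17 and limma adjusted p = 0.00716 without the trend and adjusted p = 0.568 with it. Its H3K27ac was 11.8% and 7.78% in frontal cortex but 22.3% and 97.6% in the occipital lists, so the occipital replicates were far apart in that mark and close in H3K4me2. On chromosome 13 from 78299626 to 78355000, H3K4me2 covered 59.5% and 49.4% in frontal and 98.7% and 98.9% in occipital cortex (log2 difference -0.86, limma adjusted p = 0.0112 without the trend and 1 with it). H3K27ac there was 29.8% and 48.1% in frontal and 68.5% and 97.4% in occipital cortex, in the same direction. The chromosome 9 domain from 91252651 to 91282950 went the opposite way, with H3K4me2 on 99.7% and 79.7% in frontal and 42.5% and 49.5% in occipital cortex (log2 difference 0.95, limma adjusted p = 0.0169 without the trend and 0.15 with it). In it the H3K27ac values of the areas overlapped, at 59.7% and 91.9% against 91.5% and 10.8%.

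The domains ranged from almost full to almost empty of H3K4me2. The mean over the 8 lists ran from 2.61% to 93.1% with a median of 23.8%, and it was over 50% in 90 domains and under 10% in 50. The fullest was on chromosome 14 from 122858751 to 122885525, with 100.0% and 100.0% at E11.5, 83.2% and 95.3% at E14.5, 94.7% and 88% in frontal and 89.1% and 94.2% in occipital cortex. Second came chromosome 2 from 105506376 to 105533325, with 91.0% to 95.3% in 1 unbroken region in every list. In both, H3K27ac was also high from the start, at 72.2% to 98.0% in the E11.5 lists, and its mean was lower at E17.5 by 20.7 and 3.13 points. On chromosome 6 from 6795476 to 6834200, H3K4me2 was 53.7% and 88.8% at E11.5 and 91.9% or more later. H3K27ac at E11.5 was 52.7% and 24.9%, so H3K4me2 was well ahead only in replicate 2. In that replicate the H3K4me2 list was the longer, and the H3K27ac list the shorter, of the E11.5 lists of its mark. The emptiest domain, on chromosome 5 from 112227427 to 112253626, had no H3K4me2 in the 4 earlier lists and 2.19% to 10.7% at E17.5, while H3K27ac was 64.4% and 66.2% at E14.5 and 73.3% to 100.0% at E17.5. It belongs to the cluster of 11. The domains on chromosome 11 from 112956202 and chromosome 3 from 50774751 had means of 2.66% and 3.32%, with H3K27ac of 37.4% or more at E17.5.

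Domains with more early H3K27ac also had more H3K4me2. In the 4 groups by E11.5 H3K27ac cover, median H3K4me2 cover at E11.5 was 6.87%, 14.7%, 23.6% and 37.3%, and at E17.5 it was 20.3%, 25.6%, 32.8% and 41.6%. Over the 473 domains the Spearman rho between E11.5 cover of the marks was 0.700. Between the rises of the marks from E11.5 to E17.5 it was 0.514. These are descriptions over domains, which share the same lists.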

How the data were processed

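ChIP-seq of H3K27ac and H3K4me2 was used from 16 mouse samples, 2 per mark and tissue. The deposited files give the start and end of each region the authors called, per sample, in bp, with no count or score. Bowtie 0.12.9 was used per the submitters' processing notes, which name the builds mm9 and hg19. The sources used here name no caller, no threshold and no use of the input samples. The mouse lists reach position 197068850 on chromosome 1, past the last gene end of the GRCm38.p6 table (195291439), and were taken as mm9. Neighbouring regions of a list inside the domains were at least 1025 bp apart. Rhesus lists were not analysed here.

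Regions were merged and measured in Python 3.11.15 with numpy 2.4.6 and pandas 2.3.3. H3K4me2 bp in each locus were tested with limma 3.58.1 in R 4.3.3 on log2(bp + 200), with a mean per tissue, eBayes with a trend and Benjamini-Hochberg adjustment over all loci with H3K4me2 in at least 2 lists; interval code and fit were tested on simulated data. P-values measure the spread between the 2 lists of a tissue, biological replicates per the series' design text. The domains, comparisons and rules were chosen with earlier results of these data known. Named domains are the 8 longest, the 5 with the largest and the 5 with the smallest H3K27ac rise, the 3 with the most and the 3 with the least H3K4me2, the 3 with the most E11.5 regions, up to 5 per direction and contrast by limma adjusted p, and those next to the length limit; chromosome 18 was counted but not named. Alternatives varied the length limit, the merging, the number of lists, the regions kept per list, the pseudocount, the filter, the scaling, the trend, a replicate block and each list left out.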

Additional observations from a re-analysis of the deposited data

Results flagged for a closer look

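The 2 areas of E17.5 cortex changed differently from E11.5 in H3K4me2 at 1 domain, on chromosome 2 from 93054527 to 93075050, by the test of frontal against occipital cortex. The log2 difference was -0.38 (limma adjusted p = 0.0471), from 3500 and 3700 bp at E11.5 to 3050 and 2975 bp in frontal and 3750 and 4250 bp in occipital cortex. With covered bp scaled to the list total it was 0.07. The domain was not called in the fit without the trend.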

How the results depend on the processing

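With limits of 15000 and 30000 bp there were 899 and 167 domains, and all E17.5 lists lay above both E11.5 lists in 705 and 142 (both counts chosen after seeing the data). Over the 83000 loci called in at least 2 lists the share was 29.5%, and nothing is read from the contrast, since the rule used these lists. At 30000 bp the regions per domain were 5.42 at E11.5, 4.38 at E14.5 and 3.21 in frontal cortex, and 74.9% of gained bp lay between E11.5 regions. Domains chosen in the replicate 2 lists had 47.2%, 90.3%, 93.6% and 94.0% H3K27ac cover and 3.52, 2.27, 2.10 and 1.85 regions in the replicate 1 lists, by tissue from E11.5 to occipital cortex. E11.5 was the tissue with the lowest cover in each of these settings. Its H3K27ac lists were also the shortest, and the part of list length was not tested.

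Limma calls moved more. Domains called were, for E17.5 against E11.5, 26 with H3K4me2 in at least 3 lists and 98 scaled to the list total. For E14.5 against E11.5 they were 0 with a pseudocount of 1000 bp, 3 with at least 3 lists and 14 scaled. For E17.5 against E14.5 they were 3, 3 and 19 (13 higher, 6 lower). For frontal against occipital cortex they were 0 with at least 3 lists, 3 with any list, 6 scaled (2 higher, 4 lower) and 3 without the trend. For frontal cortex against E11.5 they were 6 with a pseudocount of 1000 bp and 52 scaled (46 higher, 6 lower). Over all loci, at least 3 lists gave 4615, 1357, 2529 and 153 calls in the first 4 of these contrasts, and a pseudocount of 1000 bp gave 1344 in the second. The cause was not tested. At the named chromosome 2 domain from 93054527 scaling reversed the sign, to 0.07.

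Replicate numbers were shared between tissues, but deviations of same-numbered lists correlated at only -0.0713 to 0.281, so the number was not taken as a pairing. With the replicate block 3 domains were called for E14.5 against E11.5 and 4 for frontal against occipital cortex. In the other 3 contrasts the block gave 49, 12 and 14.

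With 1 list left out at a time (a lone list then being taken to vary like the others), H3K27ac cover was 21.3% to 35.7% at E11.5, 69.3% to 82.7% at E14.5, 80.5% to 89.9% in frontal and 66.8% to 85.0% in occipital cortex. Regions per domain were 3.84 to 4.00, 2.99 to 3.96, 2.49 to 3.06 and 2.74 to 4.20. H3K4me2 cover was 12.8% to 23.5%, 12.5% to 23.6%, 19.8% to 23.3% and 26.9% to 44.1%. Domains above both E11.5 lists numbered 391 to 447, and 58.9% to 68.6% of gained bp lay between E11.5 regions. Leaving out a list can only keep or raise that number of domains, so it is no check of stability. Domains called were 13 to 71 for E17.5 against E11.5, 0 to 11 for E14.5 against E11.5, 0 to 26 for E17.5 against E14.5, 0 to 2 for frontal against occipital cortex and 0 to 31 for frontal cortex against E11.5. All loci called were 5858 to 11741, 1413 to 4257, 3084 to 10578, 657 to 5158 and 3451 to 7095. H3K27ac rises of the named domains moved by no more than the spread of their lists. Leaving out 1 list cannot shift a stage mean by more than the SD of its lists, so nothing on stability is read from this. Of 294 values for named H3K4me2 calls, 191 kept the call and 1 reversed, and the rest kept the direction and lost the call. What depth limits could not be assessed, since the lists carry none.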

Other observations

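The X chromosome was outside the choice of domains. Of its 640 loci called in all 8 H3K27ac lists, 13 were 20000 bp or longer.

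Without the trend in the limma fit, 4 of the 473 domains fell in H3K4me2 from E11.5 to E17.5, against 2.09% of all loci. These 4 are named here because of their values. They lay on chromosome 9 from 91252651 (log2 difference -0.64), chromosome 10 from 42292027 (-0.38), chromosome 7 from 77467101 (-0.70) and chromosome 2 from 17945476 (-0.22), with limma adjusted p of 0.0237, 0.0312, 0.0417 and 0.0434. With the trend their adjusted p was 0.132, 0.105, 0.574 and 0.849. On chromosome 10 the H3K4me2 cover was 97.5% and 99.8% at E11.5, 87.0% and 97.8% at E14.5, 75.5% and 66.7% in frontal and 80.8% and 80.1% in occipital cortex. H3K27ac of that domain was 80.8% and 43.2% at E11.5, 99.7% and 91.1% at E14.5 and 51.9% to 61.8% at E17.5, so all E17.5 lists lay below the E14.5 lists in both marks.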
